A study of Mus musculus with 14 samples.

Results

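The proteasome genes of primary mouse microglia were measured as messenger RNA in cultures from TIMP2 knockout (KO) and wild-type (WT) pups. Members were taken by name: every protein-coding gene of the GRCm38 annotation whose symbol begins with Psm, a letter from a to e and a digit. The symbol rule found 45 genes, and 44 of them were among the 15700 genes that passed the filter on low counts, out of 49315 in the table. The gene left out was Psmb11, the core subunit of the thymus, with 1 read in 1 library. By role, the 44 were 8 alpha-ring genes, 7 constitutive beta-ring genes, 5 immunoproteasome genes, 6 ATPases and 3 other subunits of the base, 8 lid subunits, 3 base assembly chaperones, 3 other activators and Psmc3ip, a meiotic recombination factor that shares only the letters. The 31 genes called constitutive here are the alpha ring without the testis gene Psma8, the constitutive beta ring, the base and the lid.

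Each of the 14 libraries, 7 per genotype, came from microglia selected with CD11b microbeads from the pooled forebrains of 5 C57BL/6 pups at postnatal day 6 to 7, of both sexes, and plated on poly-d-lysine. KO mice carried a global Timp2 deletion bought as a line, so that every cell of the brain had lacked the gene, and WT mice had intact Timp2. The labels name no other treatment for either genotype. Depth was 38875344 to 48070236 counted reads per library. Levels are given as CPM, the reads counted on a gene relative to all counted reads of its library after TMM scaling. Timp2 was at 120 to 129 CPM (median 121) in KO and at 398 to 495 CPM (median 476) in WT libraries, with no overlap, a log2 fold change of -1.92 (SE 0.0464, edgeR adjusted p = 1.53e-12), so the deletion was visible in all 7 KO libraries although reads on the gene remained. The 10 microglial markers summed to 8340 to 10800 CPM, and 4 border macrophage markers, of cells that a CD11b selection would keep, to 326 to 705 CPM. A list of 6 other leukocyte markers summed to 3.62 to 9.04 CPM. Of these 6, 2 passed the filter on low counts, while the T-cell marker Cd3e and the neutrophil marker Ly6g averaged under 0.1 CPM. The sum thus came from other markers of the list. In such bulk samples fewer cells of a type and less RNA per cell cannot be told apart.

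The proteasome is the protease that breaks down proteins tagged with ubiquitin. Its barrel-shaped 20S core is built of alpha rings, which form the gate, and beta rings, in which Psmb5, Psmb6 and Psmb7 carry the active sites, and the 19S cap, made of a base with an ATPase ring and a lid with the deubiquitinase Psmd14, binds, unfolds and feeds in the substrates. In cells that receive interferon, Psmb8, Psmb9 and Psmb10 take the places of Psmb5, Psmb6 and Psmb7, and the activator made of Psme1 and Psme2 can cap the core, which favors peptides suited to loading on MHC class I. Microglia are the brain's resident macrophages and are known to express this immunoproteasome.

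The immunoproteasome genes sit in linked pairs. Psmb9 (ENSMUSG00000096727, chromosome 17, 34181987 to 34187764, minus strand) and Psmb8 (ENSMUSG00000024338, chromosome 17, 34197721 to 34201454, plus strand) flank Tap1, the peptide transporter gene, and their annotated bodies lie 9.96 kb apart. The RefSeq start sites of Psmb9 and Tap1 are only 225 bases apart and point away from each other. Psme1 (chromosome 14, 55578123 to 55581529, plus) and Psme2 (chromosome 14, 55587441 to 55591113, minus) lie 5.91 kb apart, and Psmb10 lies alone on chromosome 8 (105935735 to 105938444, minus).

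The start regions are shown as a description, and their relation to the variation across cultures was not tested. RefSeq promoters of the members (GRCm38.p6, 250 bases before to 50 after each start) were searched on both strands for an interferon gamma-activated site (TTCNNNGAA), the core of an interferon stimulated response element (GAAANNGAA), the core of an antioxidant response element (TGACNNNGC), through which Nfe2l1 and Nfe2l2 act on proteasome genes, and CCAAT. Promoters were found for 37 of the 44 members. The matches are printed with the motif in capitals and up to 10 bases on each side, on the strand on which the motif reads as spelled. The first 3 are matches at immunoproteasome genes, the Psmb9 match lying in the stretch shared with Tap1, and the others are matches at constitutive genes, among them the 1 gamma-activated site found there.
Psmb8, gamma-activated site: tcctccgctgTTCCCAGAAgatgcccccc
Psme1, interferon stimulated response element core: agcgggaaggGAAAGCGAAagcacagctc
Psmb9 and Tap1, CCAAT: gctcggctttCCAATcagcggctgc
Psmd2, gamma-activated site: gcgcgtggccTTCTGGGAAaaggggcggt
Psmb5, antioxidant response element core: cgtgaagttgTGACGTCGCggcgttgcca
Psmb6, antioxidant response element core: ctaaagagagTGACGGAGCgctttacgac
Psmc6, antioxidant response element core: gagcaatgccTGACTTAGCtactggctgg
Psmd12, antioxidant response element core: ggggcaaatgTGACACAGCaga

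The printed stretches are chr17:34198088-34198116 (plus strand) for Psmb8, 88 bases before the start, chr14:55578494-55578522 (minus) for Psme1, chr17:34187324-34187348 (plus) for Psmb9 and Tap1, 3 bases before the start of Psmb9, chr16:20651646-20651674 (plus) for Psmd2, chr14:54618024-54618052 (minus) for Psmb5, 38 bases before the start, chr11:70525338-70525366 (plus) for Psmb6, chr14:45329587-45329615 (minus) for Psmc6 and chr11:107479278-107479299 (minus) for Psmd12. The Psme1 and Psmd2 matches lay after the start, beginning 10 and 4 bases past it. That of Psmb6 ended directly before the start, and those of Psmc6 and Psmd12 lay 218 and 238 bases before it. The Psmb8, Psmb9, Psme1 and Psmd2 matches fell within exons of the GENCODE gene models, and the other 4 lay outside annotated exons. None of these matches overlapped another of the 4 motifs. The shares of promoters with a match are given beside those of all promoters, with no test. An antioxidant response element core was in 15% of 40 member promoters and in 12.4% of all 32851 promoters, an interferon stimulated response element core in 15% against 8.56%, a gamma-activated site in 5.0% against 8.3%, and CCAAT in 35% against 37.4%. Among the 6 immunoproteasome promoters (5 genes), the gamma-activated site and the interferon core each matched in 1 (16.7%). Among the 27 constitutive promoters (25 genes) the interferon core matched in 4 (14.8%), those of Psmb3, Psmb4, Psmc2 and Psmd4, and the gamma-activated site in 1 (3.7%). These are matches of letters in a short window, not binding sites.

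Levels between genes were compared per kilobase of annotated exon. Among the 31 constitutive genes the mean level ranged from 13.9 CPM per kb for Psmd11, a lid subunit, to 95.2 for Psmb6, an active-site subunit, with a median of 32.4. Psmb5 (85.1), Psmd2, a scaffold of the base (80.7), and Psma6 (77.3) were near the top, and Psmc1 (63.0), an ATPase, was the highest of its ring. Of the 5 immunoproteasome genes, 4 lay within that range in these cultures, whereas Psmb9 lay below every constitutive gene. Psme1 was at 65.8, Psme2 at 60.2, Psmb10 at 47.2, Psmb8 at 36.8 and Psmb9 at 11.5 CPM per kb, and the lowest and highest cultures ranged from 59.3 to 75.3 for Psme1 and from 9.37 to 15.7 for Psmb9. The base chaperones Psmd5 (4.22) and Psmd9 (3.63) were far lower than the subunits they help assemble, and Psmd10, their partner, was at 18.8. In CPM these chaperones were close to each other, with WT means of 30.9 for Psmd5, 26.4 for Psmd9 and 27.8 for Psmd10. Their gap per kb thus follows the annotated exon lengths, of 7230, 7248 and 1469 bases. Psma8, the testis alpha subunit, was at 1.39 and Psmc3ip at 1.33 CPM per kb.

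**Figure D1:**
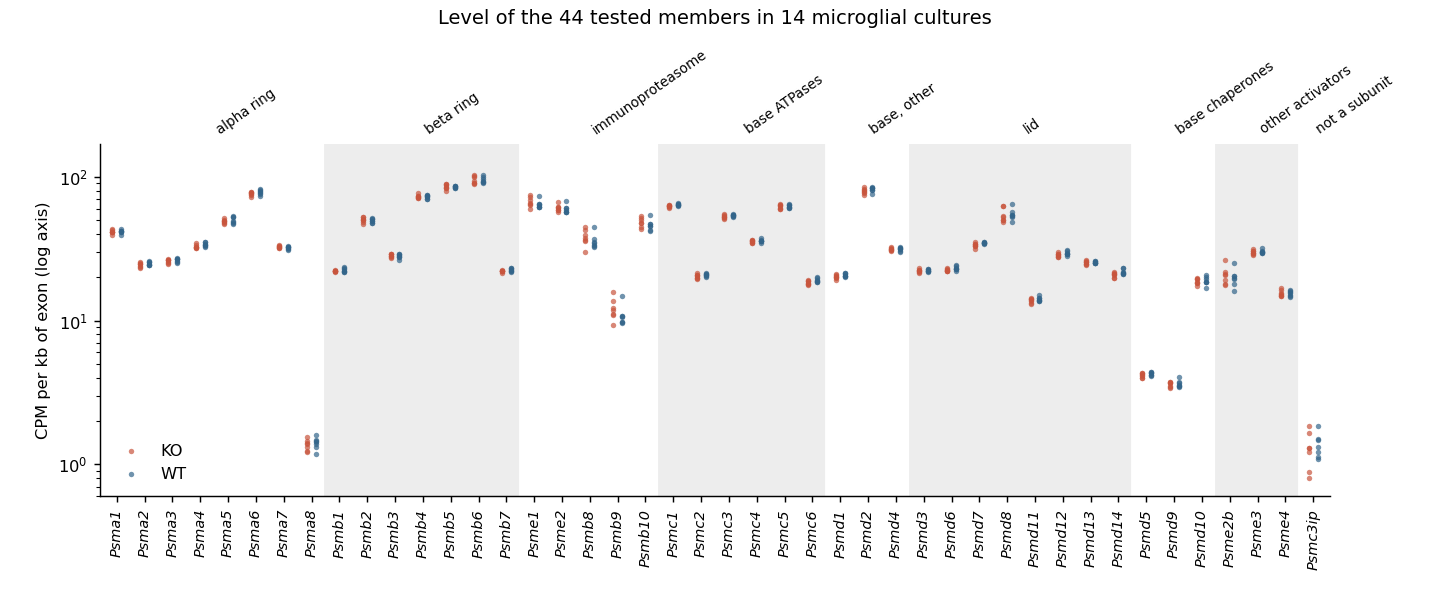
Level of each of the 44 members (CPM per kb of exon, log axis) in the 7 KO (red) and 7 WT (blue) libraries, by role. The libraries of most constitutive genes lie nearly on top of each other, with Psmd8 the most spread of them (highest over lowest 1.34-fold). Psmb8, Psmb9, Psme2b and Psmc3ip are spread out further. Psma8, Psmc3ip, Psmd5 and Psmd9 lie below the others.

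Per-kb levels depend on the gene model used. With the union of all exons, the level of Psmb8 relative to Psmb5, the subunit it replaces, was 0.448 ± 0.0641 in KO and 0.419 ± 0.0494 in WT libraries (SD, n = 7 each). With the longest transcript as the length the same ratios were 0.794 ± 0.114 and 0.742 ± 0.0876. For Psmb9 relative to Psmb6, the ratio was 0.129 ± 0.0273 in KO and 0.115 ± 0.023 in WT, or 0.0842 and 0.0751 with the longest transcript. Psmb10 exceeded Psmb7, its constitutive counterpart, with a ratio of 2.2 ± 0.179 in KO and 2.05 ± 0.197 in WT, or 2.38 and 2.22 with the longest transcript. The order of the 3 pairs was thus the same with either length, Psmb10 standing above and Psmb9 well below its counterpart. Without division by length, Psmb10 was close to Psmb7 (mean CPM 82.4 against 75.2 in KO and 78.6 against 76.9 in WT). Psmb8 then stood above Psmb5 (129 against 76.6 in KO and 120 against 76.5 in WT). The places of Psmb10 and Psmb8 thus rest on the annotated lengths, with exon unions of 1705 and 3421 bases for Psmb10 and Psmb7 and 3381 and 899 for Psmb8 and Psmb5.

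Genotype was compared first, in an edgeR quasi-likelihood fit across all tested genes. No member passed the adjusted threshold of 0.05, where 3 of all 15700 genes (0.0191%) passed, and the smallest adjusted p among the members was 0.943. At an unadjusted p under 0.05 there were 3 members of 44, beside 529 genes, or 3.37%, of all tested. All 3 were 19S subunits with a lower level in KO, beside 1.62% of all genes called lower at that p. With DESeq2, 4 members were at an unadjusted p under 0.05, these 3 and Psmc1, beside 704 of the 34582 genes in that fit. None of the members passed its adjusted threshold. No member had KO and WT ranges that did not overlap, where 0.0828% of all genes did.

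Psmd14 (chromosome 2, 61711694 to 61800376), the lid's deubiquitinase, was at 55.8 to 61.2 CPM (median 59.0) in KO and at 59.1 to 65.3 CPM (median 60.7) in WT libraries. Its log2 fold change was -0.070 (SE 0.0303, 95% confidence interval -0.134 to -0.005, exact permutation p = 0.0379, edgeR adjusted p = 0.943), and the ranges of the genotypes overlapped. Psmc6, an ATPase, was at 61.8 to 66.6 CPM (median 63.5) in KO and 64.4 to 69.8 CPM (median 66.4) in WT, with a log2 fold change of -0.057 (SE 0.0256, exact permutation p = 0.0338, edgeR adjusted p = 0.943). Psmd7, the lid partner of Psmd14, was at 71.4 to 79.6 CPM (median 76.2) in KO and 77.2 to 79.6 CPM (median 78.4) in WT, with a log2 fold change of -0.049 (SE 0.0224, exact permutation p = 0.0152, edgeR adjusted p = 0.943). These differences are a few percent of the level. The count of 3 rested on single libraries: it was 0 without WT 7 and 1 without WT 1, WT 4, KO 6 or KO 7, and without WT 5 it consisted of 2 other members, Psmb9 and Psmb10, both higher in KO.

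The 19S cap as a whole showed small values on 1 side. Of its 17 genes, 16 had a lower estimate in KO, the median of the log2 fold changes being -0.034 and their range -0.070 to 0, where 49.2% of all tested genes had a lower estimate and the median over all genes was 0.0016. All 6 ATPases and all 8 lid subunits were among them, with medians of -0.030 and -0.036. For Psmd2 the estimate was -0.040 (SE 0.033), for Psmc1 -0.037 (SE 0.0185, exact permutation p = 0.00932, edgeR adjusted p = 0.943) and for Psmd3, a lid subunit, -0.004 (SE 0.0211). Psmd4, a ubiquitin receptor of the base, had an estimate of 0.0 (SE 0.0238), and its sign changed with the scaling. Members of a cap are not independent of each other, and no test was made of the group.

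Of the core, only the constitutive beta ring was even, and the alpha ring had a median like that of the ATPases. In the alpha ring 6 of 8 estimates were lower in KO, from -0.048 (SE 0.025) for Psma4 to 0.020 (SE 0.021) for Psma7, with a median of -0.030. Of the 7 constitutive beta subunits 3 were lower and 4 higher, with a median of 0.001. Psmb5 was at 72.0 to 79.8 CPM (median 76.4) in KO and 75.3 to 77.9 CPM (median 76.1) in WT, with a log2 fold change of 0.001 (95% confidence interval -0.051 to 0.054), an estimate whose sign changed with the scaling. Psmb6 was at 166 to 193 CPM (median 174) in KO and 169 to 192 CPM (median 176) in WT, and Psmb7 at 72.8 to 76.5 CPM (median 75.2) and 73.9 to 79.1 CPM (median 76.5). The WT range of Psmb5 thus lay inside its KO range. Over the 31 constitutive genes, 24 estimates were lower and 7 higher, and the confidence bound farthest from 0 was 0.166 on the log2 scale, that of Psmd8.

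All 5 immunoproteasome genes had a higher estimate in KO, and none passed in this fit, adjusted or unadjusted. Psmb8 was at 102 to 152 CPM (median 126) in KO and 109 to 150 CPM (median 117) in WT, with a log2 fold change of 0.095 (SE 0.0844, 95% confidence interval -0.085 to 0.275). Psmb9 was at 34.3 to 57.5 CPM (median 43.5) in KO and 35.3 to 54.4 CPM (median 38.9) in WT, with a log2 fold change of 0.158 (SE 0.113, interval -0.084 to 0.40). For both genes the KO libraries spanned the whole WT range. Psmb10 was at 74.0 to 90.2 CPM (median 81.7) in KO and 71.8 to 91.7 CPM (median 77.2) in WT (log2 fold change 0.068, SE 0.0563). Psme1 was at 131 to 166 CPM (median 146) in KO and 135 to 163 CPM (median 141) in WT (0.050, SE 0.0528), and Psme2 at 101 to 117 CPM (median 106) and 99.9 to 119 CPM (median 103) (0.023, SE 0.0412). The intervals leave room for a rise of Psmb9 by 0.40 or a fall by 0.084 on the log2 scale.

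The estimates depended most on culture WT 5, the highest WT library for all 5 genes. Without it the log2 fold change of Psmb9 was 0.250 and that of Psmb10 0.109, both at an unadjusted p under 0.05, while that of Psmb8 was 0.155. The edgeR adjusted p of all 3 was then 0.684. Without KO 5, the highest KO library for all 5 genes, the values were 0.085 for Psmb9, 0.045 for Psmb10 and 0.051 for Psmb8.

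**Figure D2:**
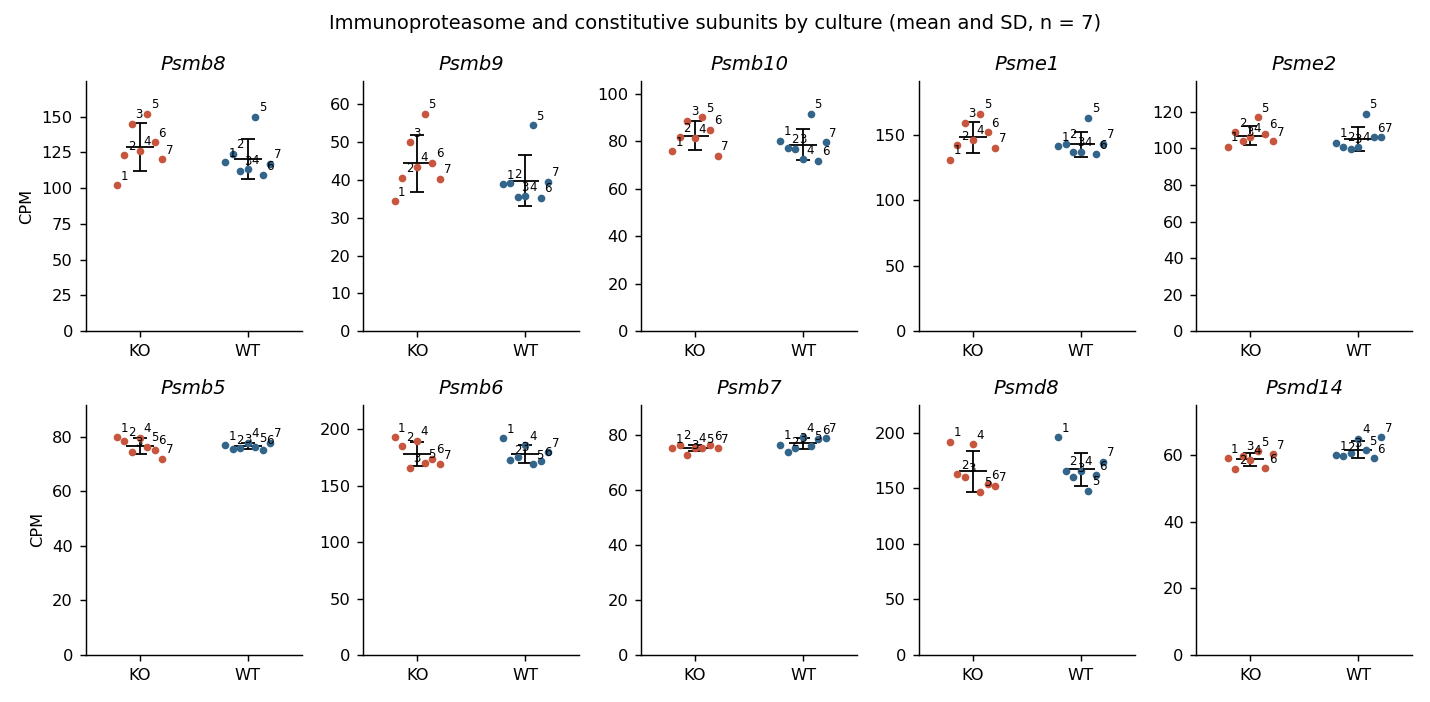
CPM of the 5 immunoproteasome genes, the 3 constitutive subunits that Psmb8, Psmb9 and Psmb10 replace, and the lid genes Psmd8 and Psmd14 in each culture (number beside the point), with the mean and SD of 7 KO and 7 WT libraries. Cultures 5 of both genotypes are the highest for Psmb8 (152 and 150 CPM) and KO 1 the lowest (102), whereas Psmb5 stays between 72.0 and 79.8 CPM in all 14.

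Ratios within a library, in which depth and scaling cancel, gave the same picture. The log2 ratio of Psmb8 to Psmb5 was higher in KO by 0.092 (two-sided exact permutation p = 0.376), that of Psmb9 to Psmb6 by 0.158 (exact p = 0.303) and that of Psmb10 to Psmb7 by 0.10 (exact p = 0.163). The adjusted p over the 3 ratios was 0.376 for each. Leaving out 1 library moved the first to between 0.05 (without KO 5) and 0.155 (without KO 1), with 0.055 without KO 3 and 0.147 without WT 5. The second moved to between 0.082 (without KO 5) and 0.25 (without WT 5), with 0.237 without KO 1, and the third stayed between 0.074 and 0.141. The ratio of Psmb8 to Psmb5 ran from 0.342 in KO 1 to 0.528 in KO 5, a span wider than the difference of the genotype means, and a ratio does not tell which of its genes differed.

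The remaining members were the chaperones and other activators. The chaperones Psmd5, Psmd9 and Psmd10 had log2 fold changes of -0.035 (SE 0.0272), -0.011 (SE 0.038) and -0.014 (SE 0.0432). Psme3, the nuclear activator that works without ubiquitin, was at 84.6 to 92.6 CPM (median 87.6) in KO and 86.8 to 94.6 CPM (median 88.4) in WT, with an estimate of -0.015 (SE 0.0258). Psme4, the activator that acts on histones, had an estimate of 0.002 (SE 0.0345), and Psme2b one of 0.051 (SE 0.0981). The 95% confidence interval of each of these 6 included 0. Psme2b and Psme2 are 99.4% identical over 794 aligned bases, so reads can be split between them, and both are uncertain. Of the 44 members, 13 had an annotated transcript of another gene at 97% identity or more over at least 150 bases, overlapping neighbours among them, such as Nek6 for Psmb7, Tap1 for Psmb9 and Sirt3 for Psmd13, which run on the opposite strand. The strand setting of the counting is not given in the sources used here, so reads in such overlaps cannot be told apart.

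Members within 20 Mb of the deleted gene Timp2 (chromosome 11, 118301069 to 118355740) were looked at on their own. Psmd12 (10.8 Mb away), Psmc5 (12.0 Mb), Psme3 (17 Mb), Psmc3ip (17.2 Mb) and Psmd3 (19.6 Mb) had log2 fold changes of -0.038 (SE 0.0244), -0.008 (SE 0.0233), -0.015 (SE 0.0258), -0.091 (SE 0.183) and -0.004 (SE 0.0211). The 95% confidence interval of each included 0.

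**Figure D3:**
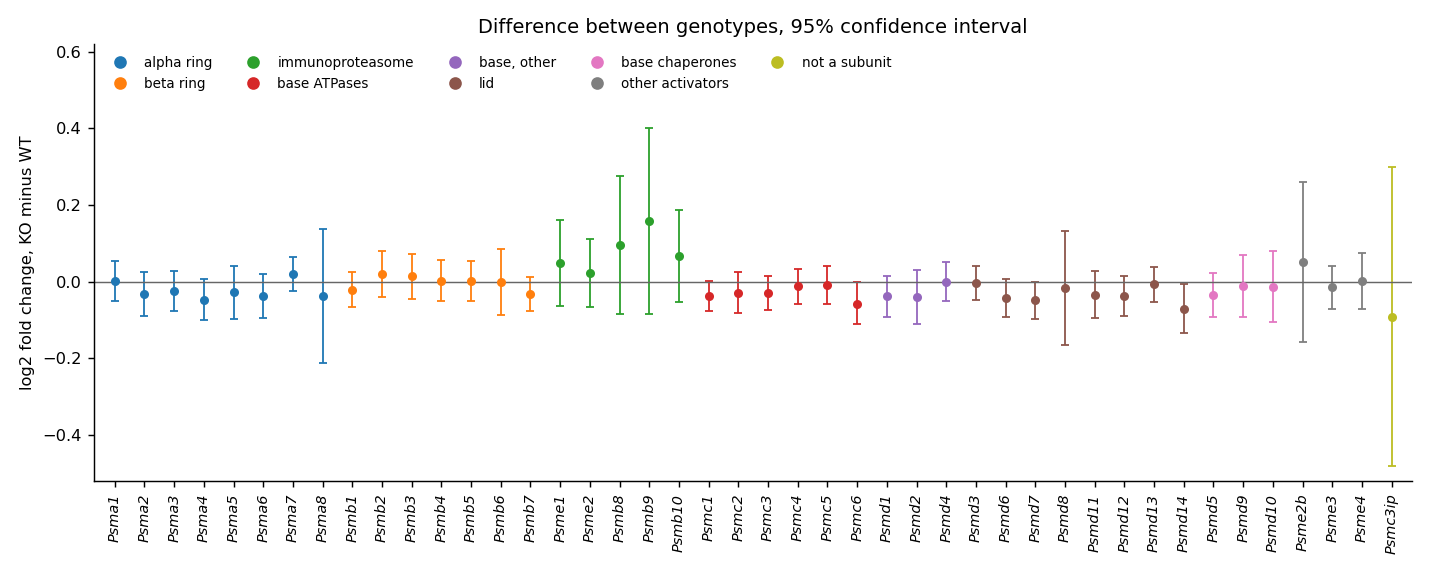
Log2 fold change (KO minus WT) of the 44 members with 95% confidence intervals, by role. The 5 immunoproteasome genes lie above 0 with intervals that include it, and 16 of the 17 base and lid genes lie below 0, with only Psmc6, Psmd7 and Psmd14 having intervals that exclude it.

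Genes that work with the proteasome were described by lists. Of 19 partners and assembly factors, 14 had a lower and 5 a higher estimate in KO (median -0.019), and none passed, adjusted or unadjusted. The smallest p values were those of the shuttle factor Rad23b (log2 fold change -0.045, SE 0.0232) and the deubiquitinase Usp14 (-0.054, SE 0.0331). Of 10 regulators of proteasome genes, 6 were higher (median 0.020) and 1 was at an unadjusted p under 0.05, the CCAAT-binding subunit Nfyc (0.070, SE 0.0322, exact permutation p = 0.0379, edgeR adjusted p = 0.943). Vcp, the segregase that extracts ubiquitinated proteins, had an estimate of -0.040 (SE 0.0303). Of 6 ubiquitin genes, 4 were higher (median 0.012), with the activating enzyme Uba1 at 0.011 (SE 0.020, a sign that changed with upper-quartile scaling).

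The lists downstream and upstream of the immunoproteasome leaned the other way from the 19S cap, again without a call. In the peptide loading list 9 of 11 estimates were higher in KO (median 0.086), with Tap1 at 0.189 (SE 0.125) and the loading factor Tapbp at 0.078 (SE 0.0359, exact permutation p = 0.0536, edgeR adjusted p = 0.943). In the interferon signal list all 13 were higher (median 0.081), with the kinase Jak1 at 0.055 (SE 0.0239, exact permutation p = 0.0192, edgeR adjusted p = 0.943) and the microglial transcription factor Irf8 at 0.081 (SE 0.0439). These genes vary together across cultures, as the next values show, so that their shared direction is not a count of independent genes. In the same libraries all 10 astrocyte, all 8 neuron, 7 of 8 oligodendrocyte lineage and all 8 proliferation markers had lower estimates in KO, against 1 of 10 microglial markers, and the part of these markers in the immunoproteasome, peptide loading and interferon values was not tested.

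Variation between cultures separated the members more than genotype did. For each gene the SD of log2 CPM within a genotype was taken. The median over all tested genes was 0.145, and over the 31 constitutive genes it was 0.0412, with all 31 under the median of all genes and 26 in its lowest 10%. Genes of all levels were ranked together, and low counts add to such an SD. No comparison was made with genes of like level. Psmc1 varied least (0.023). The immunoproteasome genes ranged from 0.079 for Psme2 to 0.105 for Psme1, 0.112 for Psmb10, 0.172 for Psmb8 and 0.229 for Psmb9, between 25.9% and 62.1% of the way up the ranking of all genes. The highest culture exceeded the lowest 1.68-fold for Psmb9 and 1.48-fold for Psmb8, against 1.11-fold for Psmb5 and 1.08-fold for Psmc1.

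The immunoproteasome genes moved as a unit. After centring log2 CPM within genotype, the 10 pairs among the 5 genes had a median Pearson's r of 0.899 across the 14 cultures (0.742 to 0.988), where the median over all pairs of tested genes was 0.0. Psmb8 and Psmb9, which lie beside each other, had r = 0.978 (rho = 0.960, permutation p = 1e-05, the smallest these permutations can give, adjusted p = 4e-05 over 12 pairs), and r = 0.962 without the 2 cultures farthest from the median. Psmb8 tracked Psme1, on another chromosome, as closely (r = 0.986, rho = 0.934, permutation p = 1e-05, adjusted p = 4e-05, and 0.977 without the 2 farthest), and Psmb10, on yet another, nearly so (r = 0.891, rho = 0.868, permutation p = 1e-04, adjusted p = 2.4e-04, and 0.853 without the 2 farthest). Psmb9 and Psmb10 had r = 0.908 (rho = 0.895, permutation p = 6e-05, adjusted p = 1.8e-04), and 0.815 without the 2 farthest. Genes on different chromosomes thus tracked each other about as closely as the neighbours did.

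Psme1 and Psme2, the partners in the activator, were the weaker link. They had r = 0.776 (permutation p = 0.00426, adjusted p = 0.00639) and rho = 0.543 (p = 0.0564, adjusted p = 0.0846), and without KO 5 and WT 5 r was 0.322, so their relation rested on those 2 cultures. Psme2b, the near-identical copy of Psme2, had r = 0.795 with Psme2 and 0.869 with Psmb9.

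Of the constitutive subunits that are replaced, Psmb5 was the one whose relation with its counterpart was tested. Psmb8 and Psmb5 had r = -0.293 (rho = -0.196, permutation p = 0.386, adjusted p = 0.463), and -0.071 without KO 1 and WT 5. As a description with no test, Psmb6 had r = -0.567 with Psmb9 and -0.615 with Psmb8. Psmb5 followed Psmb6 (r = 0.815, rho = 0.793, permutation p = 0.00129, adjusted p = 0.00221, and 0.811 without the 2 farthest cultures). Within the constitutive genes the median r was lower. It was 0.352 over the 91 pairs of the core and 0.204 over the 136 pairs of the 19S cap. Between the core and the cap it was 0.222. The constitutive genes varied little between cultures (median SD of log2 CPM 0.0412). Counting noise weighs more on genes that vary so little, and its part in these r was not tested. For the base pair Psmc1 and Psmd1 r was 0.079 (rho = 0.029, permutation p = 0.797, and 0.276 without the 2 farthest cultures). The median r of the immunoproteasome was 0.291 with the core and -0.006 with the 19S cap, values that moved to -0.033 and -0.284 with upper-quartile scaling, whereas the median within the immunoproteasome was 0.882 under it.

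**Figure D4:**
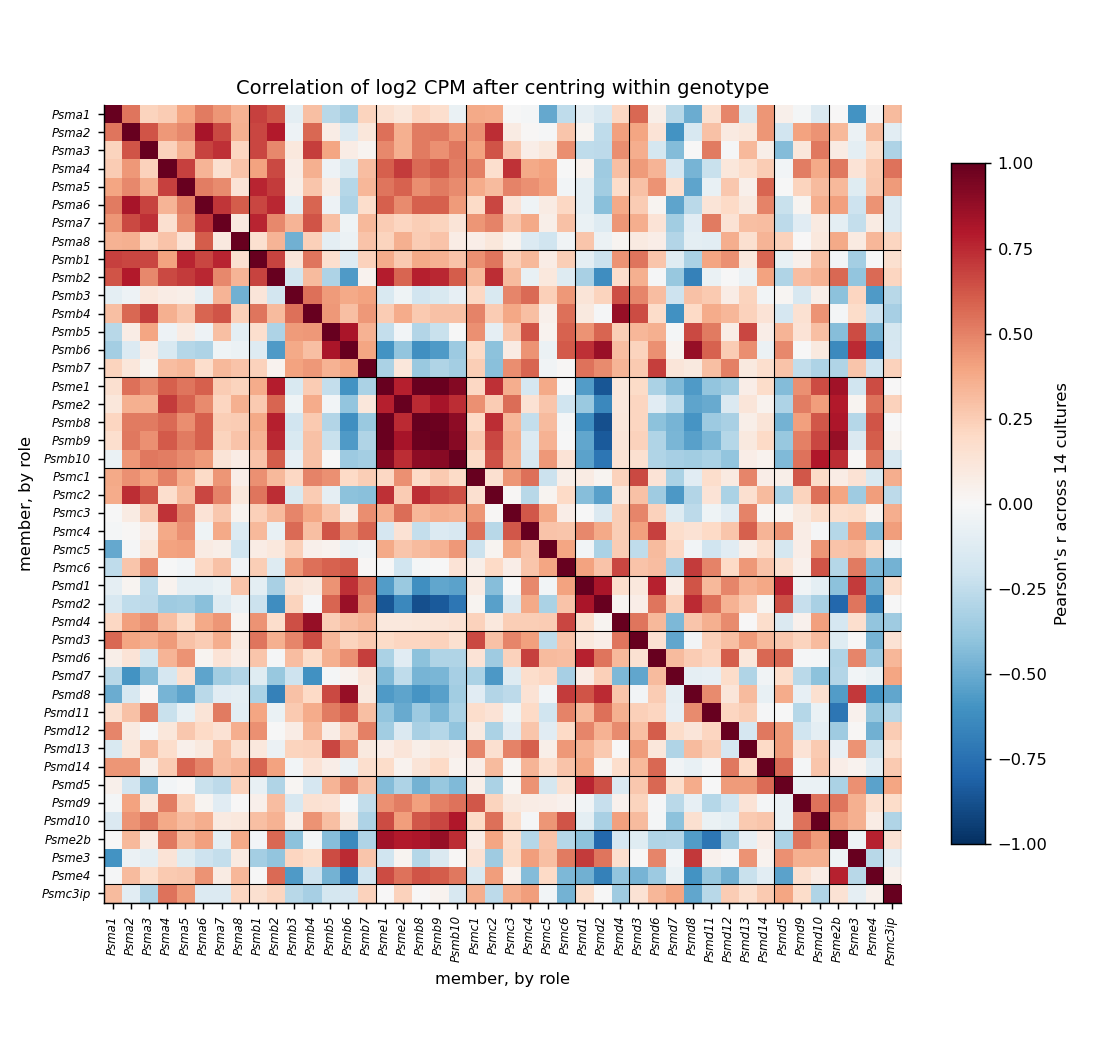
Pearson's r between all pairs of the 44 members across 14 cultures (log2 CPM centred within genotype, red positive, blue negative), with lines between role groups. The immunoproteasome block is uniformly red (0.742 to 0.988), Psme2b and Psmb2 share its red, and Psmd2, Psmb6, Psmd1 and Psmd8 are blue against it.

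Some constitutive genes nevertheless sided with the immunoproteasome or against it, which is given as a description since these were picked by their values. Psmb2, a beta subunit without an active site, had a median r of 0.750 with the 5 genes and Psmc2, an ATPase, one of 0.671, and among the activators Psme2b had 0.810 and Psme4 0.606. On the other side, Psmd2 had a median r of -0.842, Psmb6 -0.567, Psmd8 -0.546 and Psmd1 -0.539. These 4 varied together, with r = 0.870 for Psmb6 and Psmd8, 0.860 for Psmb6 and Psmd2 and 0.814 for Psmd1 and Psmd2. Psmd8, a lid subunit, was the most variable constitutive gene (SD 0.141), at 147 to 192 CPM (median 160) in KO and 148 to 196 CPM (median 166) in WT. It was highest in WT 1 (196), KO 1 (192) and KO 4 (190) and lowest in KO 5 (147) and WT 5 (148), the cultures with the most Psmb8.

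Outside the family, Psmb8 tracked Tap1 (r = 0.978, rho = 0.925, permutation p = 1e-05, adjusted p = 4e-05, and 0.95 without the 2 farthest cultures). The tested genes most like Psmb8 over the 14 cultures were Dhx58 (r = 0.992), Bst2 (0.991), Ifi204 (0.990), Trafd1 (0.989) and Psme1 (0.986). The first 4 are interferon-stimulated genes. For the mean of the 31 constitutive genes the most similar were Cops5 (0.889), Bbs2 (0.852), Hcfc1r1 (0.841), Ndufaf3 (0.838) and Rplp2 (0.837). Cops5 is the catalytic subunit of the COP9 signalosome, a complex related to the proteasome lid. Both lists hold the highest r among the 15700 tested genes, picked by their values, and no test was made of them. Nfe2l1, the transcription factor that restores proteasome genes when the protease is inhibited, was measured at 195 to 238 CPM (median 214) in KO and 208 to 239 CPM (median 215) in WT, and it had r = 0.331 with Psmb5 (rho = 0.451, permutation p = 0.353, adjusted p = 0.463) and 0.132 with Psmd1 (rho = 0.235, permutation p = 0.667, adjusted p = 0.728), neither past the threshold.

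By culture, the mean of the 5 immunoproteasome genes lay 0.278 above its genotype mean on the log2 scale in WT 5, 0.216 above in KO 5 and 0.112 above in KO 3, and in KO 1 the deviation was -0.208. The mean of the 31 constitutive genes stayed between -0.028 (WT 2) and 0.044 (WT 4). Both genotypes held cultures above and below. The constitutive mean joins genes that went both ways: in KO 1, KO 5 and WT 5 it lay within 0.006 of the genotype mean, while Psmd2 was at 343 CPM in KO 1, the highest of the 14 cultures, and at 309 and 305 CPM in KO 5 and WT 5.

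Markers of other cell types were followed beside the immunoproteasome. The summed level of 10 astrocyte markers ranged from 33.9 to 153 CPM (median 56.0) in KO and from 38.9 to 294 CPM (median 103) in WT libraries, all 10 with a lower estimate in KO and none past the threshold, and none of the 10 was at 0 throughout. Across the 14 cultures this sum, centred within genotype, had r = -0.735 with Psmb8 (rho = -0.771, permutation p = 0.00231), -0.798 with Psmb9 (rho = -0.780, permutation p = 2.9e-04), -0.851 with Psmb10 (rho = -0.824, permutation p = 2.9e-04) and -0.778 with Psme1 (rho = -0.785, permutation p = 7.6e-04), with adjusted p values from 0.00174 to 0.00693 over 12 such relations. Without the 2 cultures farthest in the sum these r lay between -0.785 and -0.842. For Psmb5 it was -0.086 (permutation p = 0.763) and for Psmd1 0.271 (permutation p = 0.366). The sums of astrocyte markers in KO 5 and WT 5 were the lowest of their genotypes, and KO 1, the culture with the least Psmb8, had 118 CPM. Other lists also leaned by genotype with no gene past the threshold. All 8 neuron markers had a lower estimate in KO (summed level 18 to 39.3 CPM in KO and 22.7 to 46.8 CPM in WT, medians 27.2 and 37.3). So did 7 of 8 oligodendrocyte lineage markers (77.1 to 121 and 79.5 to 138 CPM, medians 89.5 and 110). All 8 proliferation markers did as well (367 to 645 and 464 to 597 CPM), though the medians of their sum were alike (496 and 495 CPM). Of the 10 microglial markers 1 was lower in KO (8790 to 10800 and 8340 to 10200 CPM). The sums of KO and WT overlapped in each of these lists. With the proliferation markers, none of the 6 genes had a relation past the threshold (r from -0.210 to 0.327). The part of these markers in the results was not tested.

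**Figure D5:**
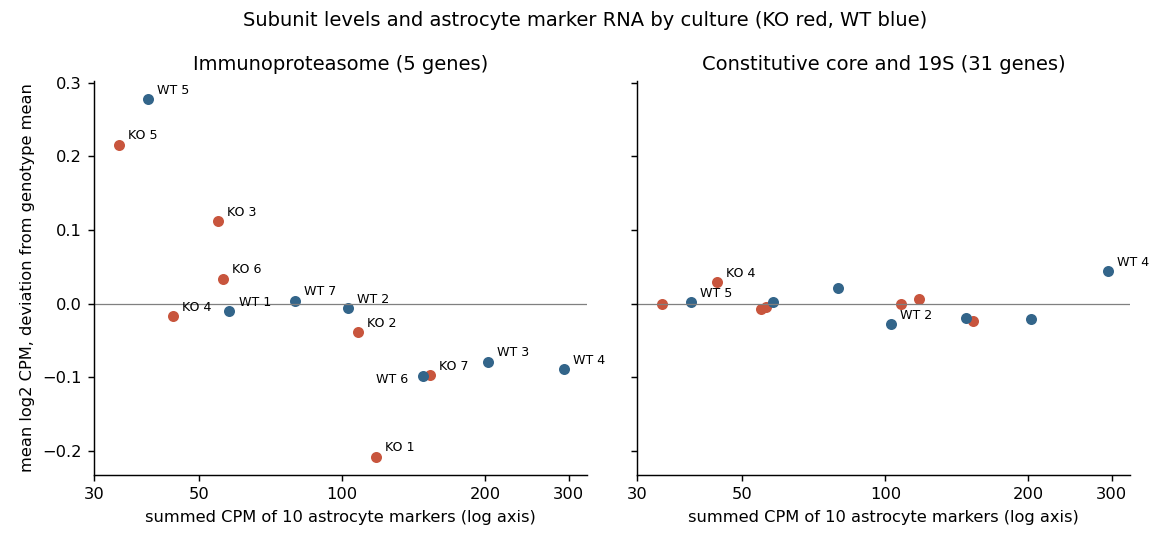
Mean deviation of log2 CPM from the genotype mean for the 5 immunoproteasome genes (left) and the 31 constitutive genes (right) against the summed CPM of 10 astrocyte markers (log axis), 1 point per culture. On the left WT 5 (0.278) and KO 5 (0.216) lie at the low end of the astrocyte sum, whereas on the right all cultures stay between -0.028 and 0.044.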

How the data were processed

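The authors mapped paired-end reads of poly(A) libraries to GRCm38 and deposited raw counts per Ensembl gene, 1 column per library, not normalized. Submitters' processing notes list Trimmomatic 0.36, STAR 2.5.2b, featureCounts, Subread 1.5.2 and DESeq2; the strand setting, annotation release and batch of each library are not given in the sources used here. Groups and replicate numbers came from the sample titles, and each library is stated to be an independent isolation. Names and exons came from GENCODE for GRCm38 (48970 of 49315 genes matched).

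Genes passing filterByExpr (minimum count 10, minimum total 15) were scaled by TMM and tested, KO over WT, by edgeR 4.0.16 quasi-likelihood (R 4.3.3), with p-values adjusted (Benjamini-Hochberg) over every gene tested. The method was tested on simulated data. Ratios were compared by exact permutation over 3432 splits, and correlations by 100000 permutations within genotype (log2 CPM, prior count 1, Python 3.11.15). Intervals of fold changes include the spread between libraries. Members and lists were chosen with earlier results of these data known. Named genes were the immunoproteasome, Psmb5 to Psmb7, in each role the highest and lowest fold change and highest level, members at an unadjusted p under 0.05 or within 20 Mb of Timp2, and the 2 smallest p values of each list. A named gene, a marker and a pair are not reported here. Other scalings, no filter, DESeq2 1.42.0, a replicate block and leaving out each library were tried. The study's DESeq2 model held batch as a covariate, a term that the fits here lack. Same-numbered libraries had correlations of deviations from -0.196 to 0.743, over 0.1 in 3 of 7 pairs, so numbers were not taken to pair the samples. The highest was that of KO 5 and WT 5, and the permutations treated these cultures as independent. Over 91 pairs of libraries the lowest chi-square per gene was 6.4, so no library was a copy of another.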

Additional observations from a re-analysis of the deposited data

Results flagged for a closer look

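A library was singled out where it stood apart from the other 6 of its genotype by more than Dixon's 95% limit. Of 82 groups examined, 11 were singled out, and chance alone gives about 1 in 20. WT 5 accounted for 8 of them. It was the highest WT library for Psmb8 (150 CPM, the next 124), Psmb9 (54.4, the next 39.5), Psmb10 (91.7, the next 80.3), Psme1 (163, the next 143), Psme2 (119, the next 106) and Tap1 (219, the next 152), and hence for the ratios of Psmb8 to Psmb5 (0.523, the next 0.438) and of Psmb9 to Psmb6 (0.165, the next 0.116). Psmb9 and Tap1 share a start region and an exon overlap, and the ratios reuse the same genes, so these 8 are not independent. KO 4 was the highest KO library for Timp2 (129 CPM, the next 123). KO 3 was the lowest KO library for Psmb7 (72.8 CPM, the next 75.1), and WT 1 the highest WT library for Psme3 (94.6 CPM, the next 90).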

How the results depend on the processing

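The count of members past the adjusted threshold was 0 in all 20 other fits, and all 5 immunoproteasome genes had a higher estimate in each. Genes passing overall numbered 11 with DESeq2 and 27 with DESeq2 and a replicate block, against 3 in edgeR with the replicate block. With the DESeq2 block Psmb9 (0.154) and Psmd14 (-0.072) were the members at an unadjusted p under 0.05, the adjusted p being 1.0 for both. The DESeq2 block had 572 of 34582 genes at such a p. With that edgeR block 2 members were at an unadjusted p under 0.05, beside 921 of 15700 genes. Its median log2 fold change of the members was -0.0172. Upper-quartile scaling gave 6 members at such a p, beside 587 of 15700 genes, and 9 members higher in KO. Without the filter on low counts 9 members were also higher in KO. The median log2 fold change over all genes was -0.0119 with upper-quartile factors, against 0.0016 in the main fit. The cause of these shifts was not tested. Leaving out 1 library gave 3 to 4 genes passing, 0 to 4 members at an unadjusted p under 0.05 and 9 to 18 members higher in KO. Of all genes, 377 to 999 were at that p in these fits.

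Signs of estimates near 0 changed. Psmb5 and Psmd4 became -0.002 and -0.002 with RLE factors, -0.012 and -0.013 with upper-quartile factors, -0.004 and -0.005 without the filter, -0.001 and -0.002 with DESeq2 and -0.002 and -0.002 with its block, and Uba1 -0.002 with upper-quartile factors. With 1 library left out, values ran from -0.011 to 0.017 for Psmb5, -0.023 to 0.019 for Psmb6, -0.019 to 0.002 for Psmc5, -0.012 to 0.009 for Psmd4, -0.013 to 0 for Psmd3, -0.059 to 0.027 for Psmd8, -0.025 to 0.015 for Psmd9, -0.04 to 0.008 for Psmd10, -0.016 to 0.118 for Psme2b and -0.03 to 0.002 for Psme3.

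Median r moved with upper-quartile factors to -0.033 between core and immunoproteasome, 0.380 within the 19S cap and -0.284 between cap and immunoproteasome. Centring on replicate number as well as genotype gave a median r of 0.853 within the immunoproteasome (0.434 to 0.985). By the same centring it was 0.253 within the core and 0.133 within the cap. Without the 2 farthest cultures r was 0.322 for Psme1 and Psme2, -0.071 for Psmb8 and Psmb5 and 0.369 for Psmd1 and Nfe2l1. With marker sums, an alternative chosen after seeing the data, it turned to 0.118 for Psmb5 with astrocyte markers and to -0.016 and -0.057 for Psmb9 and Psme1 with proliferation markers.

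With 7 libraries per genotype, differences of any size within the intervals given remain possible. Messenger RNA is not protein or protease activity, and the batch of each library could not be modelled.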
